A study of Mus musculus with 2 samples.

Results

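The genes examined here encode the IκB kinase complex and the kinases and adaptors that act directly above it in NF-κB signalling. They were Chuk, Ikbkb, Ikbkg, Ikbke, Tbk1, Map3k7, Map3k14, Traf2, Traf6 and Ripk1. Every probe of the arrays whose RefSeq accession belongs to one of these genes was taken, which gave 15 probes of 10 genes among 39417 probes and 20653 named genes. Of these genes, 4 had more than 1 probe and 6 had a single probe.

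The samples were MIN6 cells, an insulin-secreting line derived from a transgenic mouse insulinoma, at passages 15 to 20. Cells of the FTO group received a lentivirus of the pLVX-IRES-ZsGreen vector with mouse FTO, an RNA demethylase, and cells of the control group received the empty vector. Both groups were exposed to virus for 48 h, carry the ZsGreen reporter and were used as a pool of transduced cells, whose transduced share is not given in the sources used here. Total RNA of each was labelled with Cy3 and hybridized to 1 one-color Agilent array per condition, so the differences below carry no replicate error and no test. The FTO label could not be checked by its own gene: the single Fto probe read 7301 with FTO and 5179 in the control, a log2 difference after normalization of 0.06 against a spot error of 0.20. Whether that probe lies in the coding sequence carried by the vector was not determined. All 11 beta cell markers were well above background on both arrays, with a lowest signal of 5180. So were the 4 markers of other islet cells, up to 257000 at Gcg (glucagon), the 4 macrophage markers that have a probe (33.7 to 1430), the 3 acinar markers (24.3 to 76.6), 3 of 4 fibroblast markers and 2 of 3 endothelial markers. The summed normalized level, FTO minus control on the log2 scale, differed by -0.26 for acinar, -0.22 for macrophage, -0.08 for beta cell, -0.07 for endothelial, 0.005 for other islet and 0.06 for fibroblast markers. A sum follows its brightest probes, and within 4 of the 6 lists single markers lay on both sides of 0. Above 0 were 5 of 11 beta cell, 2 of 4 other islet, 1 of 3 acinar and 1 of 3 fibroblast markers, and none of the 4 macrophage or 3 endothelial markers. The part of these differences in the values of the 10 genes was not tested. In RNA of a whole culture, fewer cells of a type and less RNA per cell cannot be told apart.

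In resting cells NF-κB dimers are held in the cytoplasm by IκB proteins. In the canonical pathway, receptors for TNF, interleukins and microbial products recruit TRAF adaptors and RIPK1, the ubiquitin chains built there gather the kinase TAK1 and the IκB kinase complex, and the active complex phosphorylates IκB, which is then degraded. In the noncanonical pathway the kinase NIK acts through IKKα alone and is itself kept low by TRAF-directed degradation. Beta cells use both routes in their response to inflammatory cytokines. Much of this control works on protein stability, ubiquitin and phosphate, which arrays of RNA do not measure.

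All 15 probes were well above background on both arrays. Before normalization, 14 of them were brighter on the array labelled FTO, with a ratio between 1.04 and 1.53 among these 14, and the exception was the second probe of Map3k14. The array as a whole was brighter: 83.6% of the 33844 probes tested (well above background on at least 1 array) had the higher signal there, and the median ratio was 1.27 over tested probes and 1.33 over the 15 probes. After quantile normalization, which gives both arrays the same distribution of signals, 7 probes lay above 0 (higher with FTO) and 8 lay below. Differences below are log2 of FTO over control after this step, and probes of one gene are numbered by their mean signal. The paired signals before normalization are shown for each probe.

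**Figure D1:**
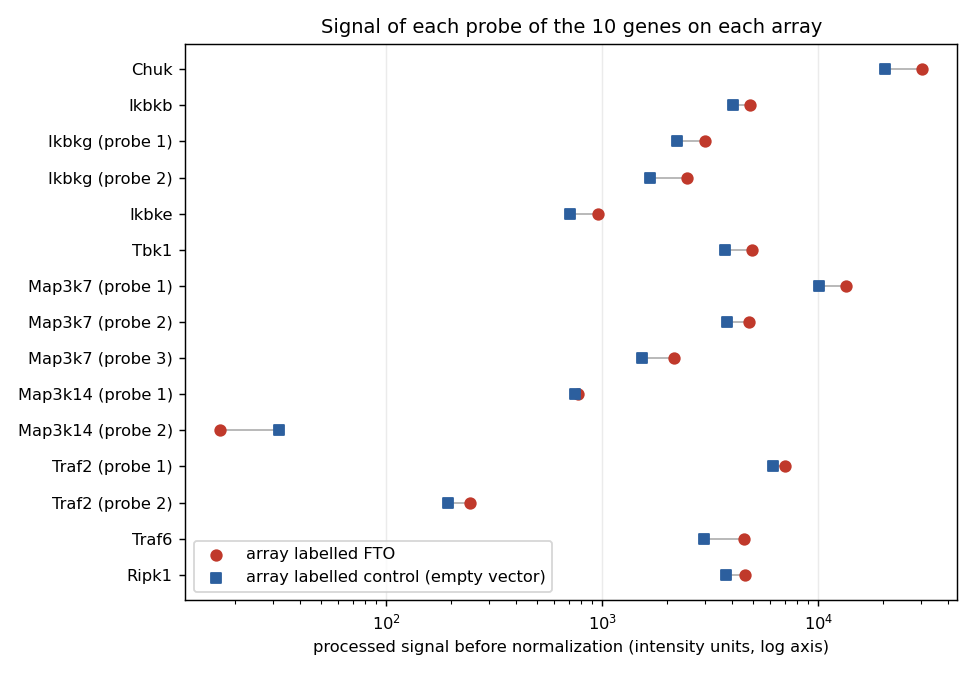
Signal of the 15 probes before normalization (log axis, arbitrary units), with 1 point per probe for the array labelled FTO and 1 for the array labelled control. The FTO point lies to the right for 14 probes, and to the left for the second probe of Map3k14.

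None of the 15 probes reached a 2-fold difference, which 3.48% of tested probes did. Under scaling to the 75th percentile 1 of the 15 did, the second probe of Map3k14 at -1.32, against 5.01% of tested probes. Under cyclic loess the same probe did, at -1.06, against 3.79%. A difference of 1.5-fold was reached by 1 of the 15, the second probe of Map3k14, against 8.77% of tested probes (2968). Under normexp background correction 0 of the 15 reached it, against 516 of the 33844 tested probes. The combined spot error, which the scanning software assigns to the spots of both arrays, was exceeded by 3 of the 15 probes. These were both of Map3k14 and the first of Traf2, against 32.4% of tested probes. This error was 0.204 at most of the 15 probes whatever their signal, so there it acted as a common cutoff. A narrower yardstick was the spread of probes printed 10 times on the same array, whose SD for a difference was between 0.081 and 0.085 above a log2 signal of 8. By 2 SD of these repeated spots, 4 of the 15 probes stood apart, those of Ikbkb and Traf6 and the first of Map3k14 and of Traf2, against 23.2% of tested probes. Spot error and repeated spots measure the array only and hold nothing of the variation between cultures.

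**Figure D2:**
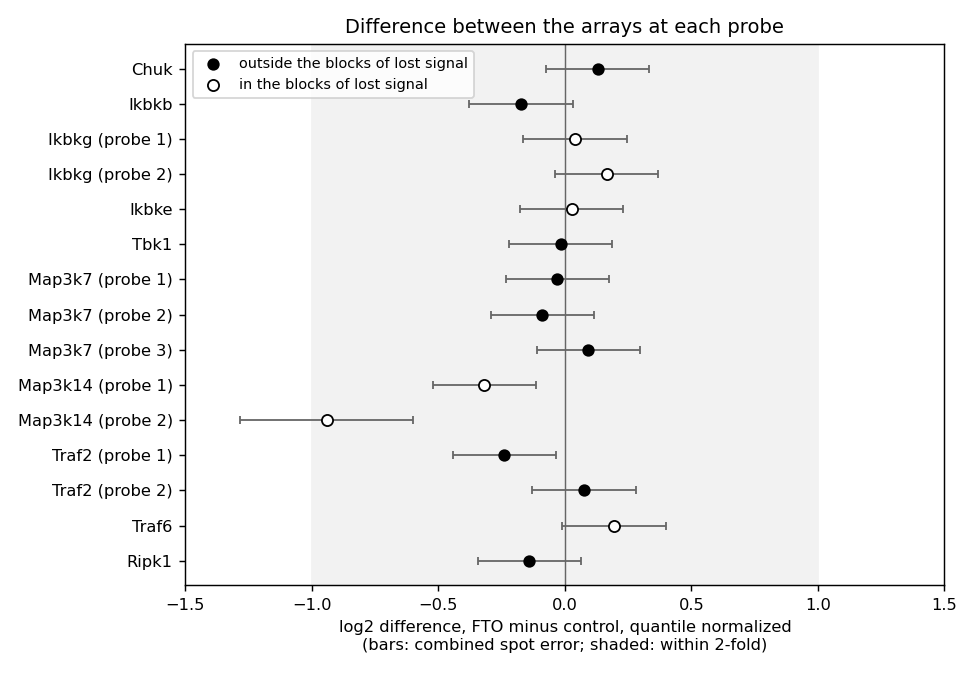
Log2 difference, FTO minus control, of the 15 probes after quantile normalization, with a bar of 1 combined spot error to each side. Open points lie in an area of the array labelled FTO that had lost signal, and shading marks differences within 2-fold. The values run from -0.94 at the second probe of Map3k14 to 0.19 at Traf6, and the bars of all but 3 probes, both of Map3k14 and the first of Traf2, cross 0.

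None of the probes of the catalytic and scaffold subunits of the IκB kinase complex passed its spot error, and Ikbkb stood apart by 2 SD of repeated spots. Chuk, which encodes IKKα, the kinase shared by both pathways, read 30335 with FTO and 20447 in the control. Its difference after normalization was 0.13 with a spot error of 0.20, and 29.0% of tested probes of like signal (mean log2 signal within the same unit) lay at least as far from 0. Ikbkb encodes IKKβ, the main IκB kinase of the canonical pathway, and read 4829 with FTO and 4050 in the control. Although it was the brighter on the array labelled FTO, its gain was smaller than that of most probes, so its normalized difference was -0.17. This was within the spot error of 0.20 and 2.15 times the SD of repeated spots, and 23.1% of tested probes of like signal lay at least as far from 0. Chuk was thus above 0 and Ikbkb below 0, in each of the 5 scalings compared.

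Ikbkg encodes NEMO, the regulatory subunit that binds ubiquitin chains and holds both kinases together. It had 2 probes. The first read 3006 with FTO and 2218 in the control, a difference of 0.04. The second read 2458 and 1671, a difference of 0.17. Both probes leaned to the higher side, neither passed its spot error of 0.20, and they differed from each other by 0.13, close to the median gap of 0.14 between the 2 brightest probes of the 4608 genes with at least 2 probes above background on both arrays.

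The IKK-related kinases had the smallest differences of the 10 genes when each gene is read by its brightest probe, with Map3k7 beside them. Ikbke encodes IKKε, which is itself induced by NF-κB in many cells, and read 955 with FTO and 713 in the control. Its difference was 0.03, and 88.9% of tested probes of like signal lay at least as far from 0. Tbk1, the kinase that phosphorylates interferon regulatory factors downstream of nucleic acid sensors, read 4943 and 3715, with a difference of -0.02, and 90.1% of probes of like signal lay at least as far from 0. Neither gene could be separated from 0 by the error of its spots, which was 0.20 for both, and the sign of Ikbke turned to -0.003 under scaling to the 75th percentile.

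Of the upstream kinases, Map3k7 encodes TAK1, which phosphorylates IKKβ and also starts JNK and p38 signalling. It had 3 probes. They read 13435, 4770 and 2147 with FTO, and 10128, 3793 and 1527 in the control. The differences were -0.03, -0.09 and 0.09, so the probes lay on both sides of 0 and spanned 0.18, which is less than the spot error of 0.20 of each. The accessions of these probes name more than 1 transcript record of the gene (NM_009316 for probes 1 and 3, NM_172688 for probe 2), and the signs do not split by record.

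Map3k14 encodes NIK, the kinase that starts the noncanonical pathway. Its 2 probes carry the same accession, NM_016896, and had the lowest differences of the 15. The first read 776 with FTO and 747 in the control, which was nearly level before normalization while other probes gained. Its difference was -0.32, a 1.25-fold lower value, larger than the spot error of 0.20 and 3.75 times the SD of repeated spots, and 11.6% of tested probes of like signal lay at least as far from 0. The second read 17.1 with FTO and 31.8 in the control, where the lowest signals counted as well above background were 13.1 and 10.1, and was the one probe of the 15 with the lower signal on the array labelled FTO before any normalization.

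The difference of the second Map3k14 probe was -0.94, a 1.92-fold lower value, with a spot error of 0.34 and an SD of repeated spots of 0.54 at that signal. It lay 1.76 times that SD from 0, and 9.34% of tested probes of like signal lay at least as far. Its size varied with the processing. It was -1.32 under scaling to the 75th percentile, -1.06 under cyclic loess and -0.23 under the normexp background correction with an offset of 50. Such an offset, added to every intensity, draws the differences of dim probes toward 0 by construction. Raising dim values to the lowest value above background left the difference at -0.94 by construction, since both signals of the probe were above that value. The first probe kept values between -0.37 and -0.22 across the same scalings. Both probes thus had the same direction, but they differed by 0.62 in size, the widest gap between probes among the 4 genes with more than 1. Both lie in the area of the array labelled FTO that had lost signal, described below.

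The differences of the 15 probes are set against those of all tested probes of like signal in the plot of difference against mean signal. Tested probes with a mean log2 signal between 9 and 10 had a 5th percentile of -0.35, those between 4 and 5 had one of -0.96, and those between 12 and 13 had one of -0.25. The differences of the Map3k14 probes, -0.32 and -0.94, and of the first Traf2 probe, -0.24, lay just inside these limits. None of the 15 probes lay outside the 5th to 95th percentile of tested probes within the same unit of log2 signal.

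**Figure D3:**
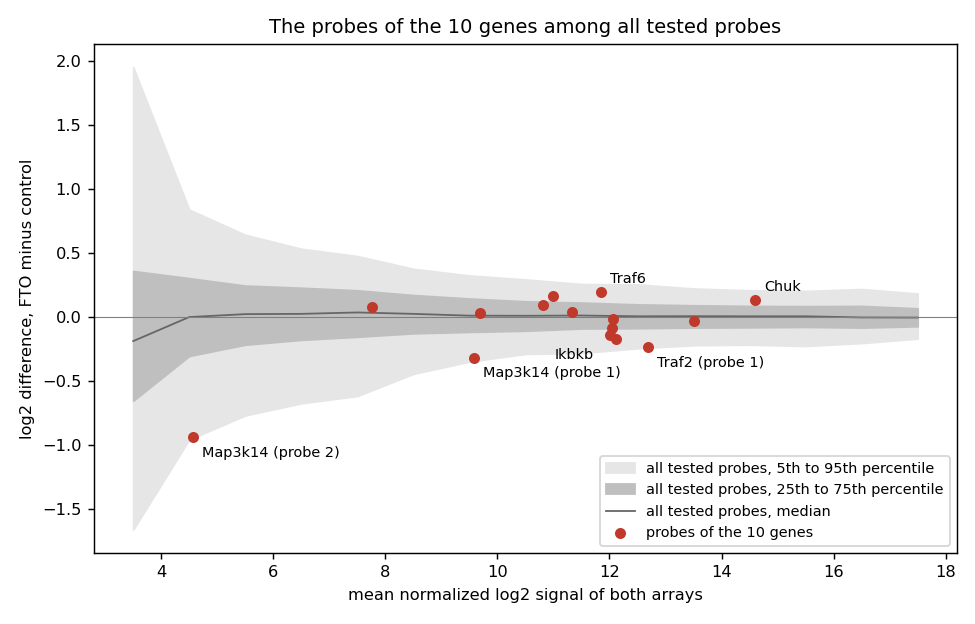
Log2 difference, FTO minus control, against the mean normalized log2 signal of both arrays. Red points are the 15 probes, and grey bands hold the 5th to 95th and the 25th to 75th percentile of tested probes at that signal. All 15 points lie within the wider band, and both Map3k14 probes and the first Traf2 probe are near its lower edge.

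Traf2, which carries TNF receptor signals and takes part in the degradation of NIK, had 2 probes for the accession NM_009422. The first read 7039 with FTO and 6173 in the control, and its difference of -0.24 was larger than its spot error of 0.20 and 2.96 times the SD of repeated spots, and 11.3% of tested probes of like signal lay at least as far from 0. The second read 245 and 193, with a difference of 0.08 and a spot error of 0.21. The probes thus had opposite signs and lay 0.32 apart, and the second turned to -0.08 under scaling to the 75th percentile. Over the 4608 genes with at least 2 such probes, 59.9% had the same sign at the 2 brightest.

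Traf6, the ubiquitin ligase that links interleukin-1 and Toll-like receptors to TAK1, read 4556 with FTO and 2969 in the control. This was the highest ratio of the 15 probes before normalization, 1.53. Its difference of 0.19 was the highest of the 15, within the spot error of 0.20 and 2.31 times the SD of repeated spots, and 21.5% of tested probes of like signal lay at least as far from 0. The Traf6 spot also lies in the area of lost signal.

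Ripk1, the adaptor kinase of TNF receptor signalling that stands between NF-κB activation and cell death, read 4565 with FTO and 3760 in the control. Its difference was -0.14, within the spot error of 0.20 and 1.75 times the SD of repeated spots. It was lower under all 5 scalings, between -0.16 and -0.14.

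Read by the brightest probe of each gene, 4 of the 10 genes were higher and 6 were lower, with a median of -0.02. Of the 4 higher genes, Ikbkg, Ikbke and Traf6 lie in the area of lost signal and Chuk does not. Of the 18513 named genes tested, 9553 were higher and 8935 lower, with a median of 0.01. None of the 10 genes passed 1.5-fold or 2-fold by this reading, against 6.96% and 2.68% of named genes tested. The spot error was exceeded by 2 of the 10, Map3k14 and Traf2, against 28.6% of named genes tested. Taking the mean over the probes of a gene gave a median of -0.01, and taking the probe with the largest difference gave 0.01 with 5 genes on each side.

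The direction was compared under 5 scalings: quantile normalization, scaling to the 75th percentile, cyclic loess, normexp background correction and the authors' deposited log2 values. It was the same in all 5 for 13 of the 15 probes, of which 5 were higher and 8 lower. The exceptions were Ikbke and the second probe of Traf2. These 5 scalings are not independent, since the authors' values and normexp also used quantile normalization of the same arrays. Scaling to the 75th percentile moved the median of all tested probes to -0.08, while the other scalings left it within 0.01 of 0.

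**Figure D4:**
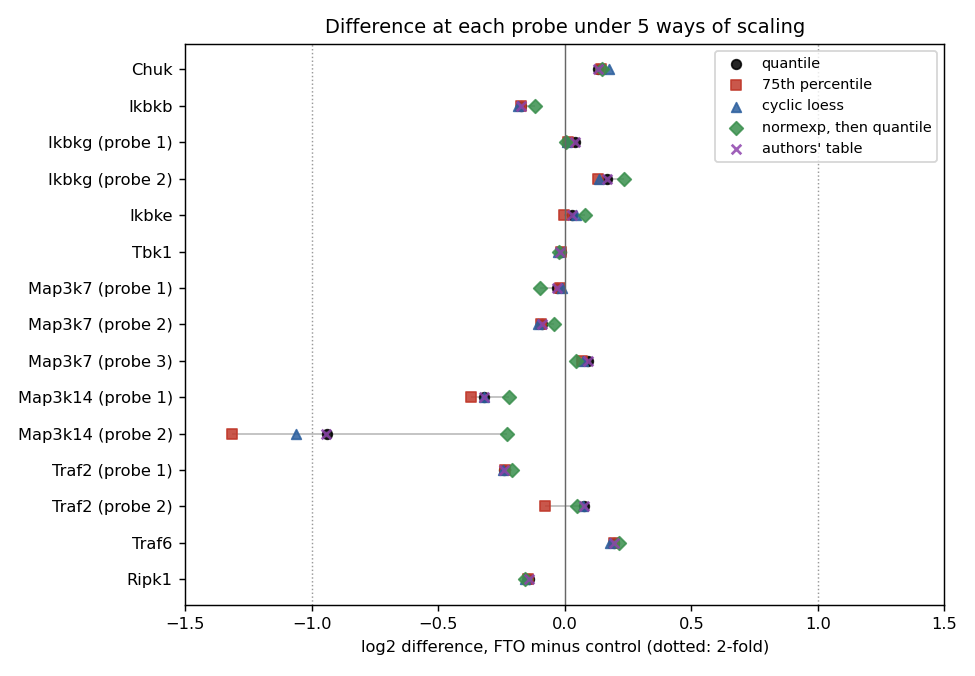
Log2 difference, FTO minus control, of each of the 15 probes under 5 scalings, with 1 marker per scaling. Markers of a probe lie close together except at the second probe of Map3k14, whose values run from -1.32 to -0.23.

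Part of the array labelled FTO had lost signal in dim spots. The surface was divided into 35 blocks, and 6 adjoining blocks lay over rows 229 to 456 and columns 1 to 34. In them 29.0% of repeated spots of low to middle signal lay more than 0.5 (log2) below the median of their probe. Elsewhere on the array 1.86% did. Blocks were picked where this same share was at least 15%, so a contrast with the rest was set by the choice. For repeated probes above a log2 signal of 8 the share was 0.49% in these blocks and 0.0507% elsewhere. The median deviation of these brighter spots from the median of their probe was 0.038 in the blocks and -0.004 elsewhere. Its part in the values of Ikbkg, Ikbke and Traf6 was not tested. Of the 15 probes, 6 lie there: both of Ikbkg, both of Map3k14, and those of Ikbke and Traf6. Inside the blocks 4 probes were higher and 2 lower, and outside them 3 were higher and 6 lower, with values from -0.24 to 0.13. Tested probes inside the blocks passed 1.5-fold in 17.5% of cases, against 6.9% elsewhere. Without such blocks of either array, 5 of the 10 genes remained by their brightest probe, 1 higher and 4 lower, with a median of -0.03. The part of the lost signal in the Map3k14 difference was not tested. The Ikbkb spot lies in 1 of 2 such blocks of the array labelled control.

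**Figure D5:**
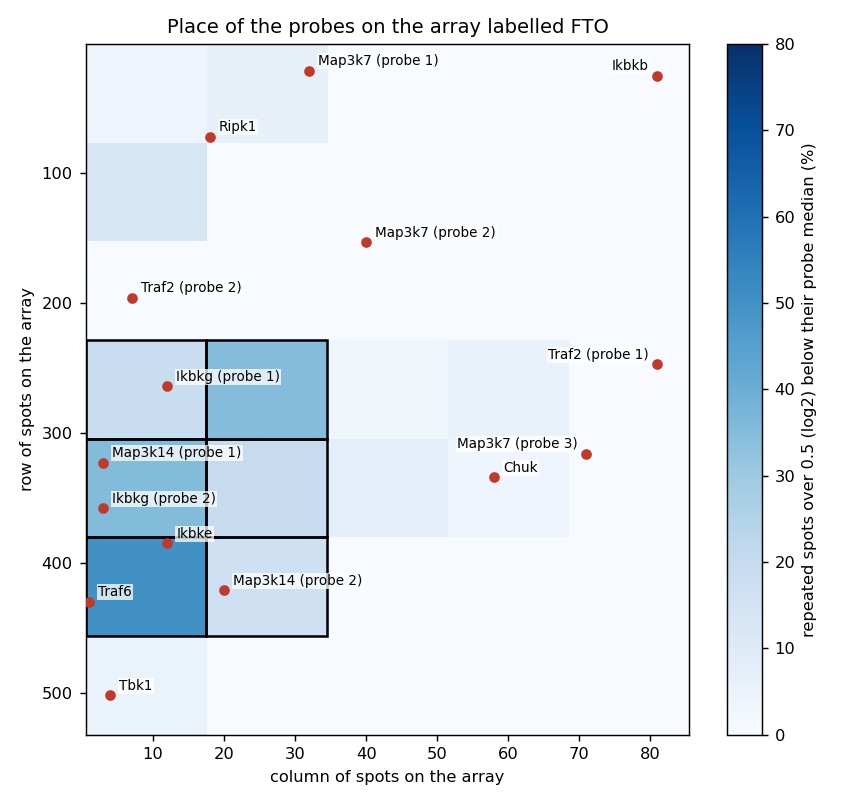
Place of the 15 probes (red) by row and column of spots on the array labelled FTO. Shading gives the percentage of repeated spots over 0.5 (log2) below the median of their probe in each block, and black frames mark the 6 blocks of lost signal, which hold 6 of the 15 probes.

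The sequence before the start site is shown for 3 of the genes, in RefSeq GRCm38.p6: Map3k14 and Traf6, whose brightest probes had the lowest and the highest difference, and Map3k7, the only one of the 9 genes with a RefSeq window that has a match to the NF-κB-like motif GGGNNTTTCC, printed in capitals. Each is the 250 bases before the start, 5′ to 3′ along the gene, at chr11:103267402-103267651 on the minus strand, chr2:101678170-101678419 on the plus strand and chr4:31963857-31964106 on the plus strand.
Map3k14: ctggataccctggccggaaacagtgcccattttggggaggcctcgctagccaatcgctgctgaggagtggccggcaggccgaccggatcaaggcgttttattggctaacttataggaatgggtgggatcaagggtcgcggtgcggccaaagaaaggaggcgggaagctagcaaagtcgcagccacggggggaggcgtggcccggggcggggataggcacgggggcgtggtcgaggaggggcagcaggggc
Traf6: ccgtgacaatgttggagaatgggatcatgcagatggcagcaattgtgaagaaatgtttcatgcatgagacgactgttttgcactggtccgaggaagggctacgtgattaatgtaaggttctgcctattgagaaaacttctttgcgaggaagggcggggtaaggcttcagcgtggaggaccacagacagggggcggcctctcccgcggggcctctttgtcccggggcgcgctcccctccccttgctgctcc
Map3k7: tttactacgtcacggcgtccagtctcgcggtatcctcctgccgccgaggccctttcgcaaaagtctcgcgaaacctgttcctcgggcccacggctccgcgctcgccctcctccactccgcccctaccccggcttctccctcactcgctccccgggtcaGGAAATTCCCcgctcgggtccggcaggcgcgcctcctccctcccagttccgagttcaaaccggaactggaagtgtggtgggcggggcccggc
The Map3k7 match lies 92 to 83 bases before the start and reads GGAAATTCCC, the motif on the other strand. These windows hold 19, 13 and 28 CpG dinucleotides. RefSeq windows were matched for 9 of the 10 genes, 13 windows in all, with a median of 14 CpG dinucleotides against 6 over all 32851 windows.

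The motif GGGNNTTTCC occurs on either strand in 1.41% of all windows of this length. It was 1 of 11 spellings searched on both strands, and it was singled out after the matches had been seen. The other NF-κB-like spellings overlap with it and with each other. Of these, GGGACTTTCC (0.14% of windows), GGGNNTTCC (4.98%), GGAANTCCC (1.43%), GGGAATTCC (0.21%) and GGGNTTCC (4.86%) matched none of the 13 windows. GGGNNNTCC (15.2%) matched a window of Ikbkg, and GGGAANNCC (4.99%) matched one of Ripk1. The spelling TGACGT (6.47%) matched windows of Traf2, Map3k7 and Ripk1, its longer form TGACGTCA (1.55%) matched none, and CCGGAAG (6.91%) matched windows of Ripk1 and Ikbkg. A match describes letters in the window, and the arrays did not measure binding.

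Other genes of the pathway, in 4 lists, were read by their brightest probe. Of 61 genes, 60 were tested, 33 were higher and 27 lower, with a median of 0.05. Among the 18513 named genes tested, 9553 were higher and 8935 lower. The spot error was passed by 14, against 28.6% of all named genes tested, and none reached 1.5-fold, against 6.96%. Of 12 receptors, 11 were tested, 8 were higher and 3 lower, and 5 passed the spot error that 28.6% of named genes passed. Among these 5, Tnfrsf1a passed at 0.13 with a spot error of 0.065. Tlr2, also among them, had dim signals of 19.4 with FTO and 14.7 in the control. The median of the 11 receptors was 0.13, and it was 0.17 under cyclic loess, 0.06 under normexp and 0.01 under scaling to the 75th percentile. The last scaling moved the median of all tested probes to -0.08. Tlr3, the receptor for double-stranded RNA, had the highest value of this list, with signals of 425 with FTO and 232 in the control and a difference of 0.57 against a spot error of 0.21. Ltbr, the lymphotoxin beta receptor upstream of NIK, had the lowest, -0.07.

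Of 19 adaptors and ubiquitin ligases, 11 were higher and 8 lower, with a median of 0.05, and 4 passed the spot error, against the same 28.6%. Ube2v1, a partner in building the ubiquitin chains that TRAF6 makes, was the highest at 0.29. Traf1, a TRAF adaptor without ligase activity, was the lowest at -0.40, and its spot lies in the area of lost signal. Of 17 kinase partners and other upstream kinases, 8 were higher and 9 lower, with a median of -0.01 that turned to 0.01 under cyclic loess and 0.05 under normexp, and 4 passed the spot error. Erc1, a scaffold protein of the IκB kinase complex, was the highest at 0.48 and lies in the area of lost signal, and Ripk3, the kinase of necroptosis, was the lowest at -0.35 against a spot error of 0.34. Of 13 deubiquitinases and inhibitors, 6 were higher and 7 lower, with a median of -0.02, and 1 passed the spot error. Usp18, an interferon-induced protease, was the highest at 0.34 and Spata2, which brings the deubiquitinase CYLD to receptor complexes, the lowest at -0.16.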

How the data were processed

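RNA of MIN6 cells was measured on 2 one-color Agilent arrays, 1 per condition, from 1 slide and 1 scan. The authors deposited spot intensity values written by Feature Extraction 11.0.1.1 (background subtracted, spatial trend removed, not normalized between arrays) with an error estimate and flags. They also deposited log2 values of 33870 probes, quantile normalized in GeneSpring GX 11.5. Here control and outlier spots were left out, repeated spots were averaged after log2 transformation, and limma 3.58.1 (R 4.3.3) was used for quantile normalization. The result differed from the deposited log2 values by a mean of 0.0032. Python 3.11.15, pandas 2.3.3, numpy 2.4.6 and matplotlib 3.10.9 did the rest. Probes were named by RefSeq accession through the NCBI annotation of GRCm38.p6. Probe coordinates are not given because the array was designed on another assembly. Normexp used median intensities with an offset of 50.

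Every probe of the 10 genes was named. Of each pathway list, the genes with the highest and lowest difference among those above background on both arrays were named. The genes and lists were chosen with earlier results of these data known. The spread of repeated spots kept spots with an outlier flag, since lost spots are often flagged, a choice made after the values had been seen. The limits of a block with lost signal were also set after seeing these data. The scripts were tested on simulated data. With 1 array per condition, the number of arrays limits the precision.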

Additional observations from a re-analysis of the deposited data

How the results depend on the processing

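No paired analysis was possible because each condition has 1 array. Of 90 alternative values of the 15 probes, 2 moved by more than 0.204, both at the second probe of Map3k14. They were -1.32 under scaling to the 75th percentile and -0.23 under normexp. The 90 include values with dim signals raised, which could not change probes above background on both arrays. Also among them are the authors' values and those with outlier spots kept, which lay close to the main ones. Scaling to the 75th percentile also turned the small values of Ikbke and the second probe of Traf2 below 0. The median over the 10 genes was between -0.06 and 0.01 under all alternatives run.

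Counts over all tested probes varied with the processing, and the cause was not tested. The 1177 probes past 2-fold (438 higher, 739 lower) became 264 higher and 1430 lower under scaling to the 75th percentile. They became 132 (38 higher, 94 lower) under normexp and 778 (448 lower) with dim values set to the lowest value above background. They became 491 (165 higher, 326 lower) where both arrays had to be above background. Without the blocks of lost signal of either array they became 597 (277 higher, 320 lower), and with no filter 2176 (987 higher, 1189 lower). Of the 15 probes, 1 passed 2-fold under scaling to the 75th percentile (5.01% of tested probes) and 1 under cyclic loess (1281 tested probes, 3.79%), the second probe of Map3k14 in both.

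The 2968 probes past 1.5-fold (1185 higher, 1783 lower) became 527 higher and 3661 lower under scaling to the 75th percentile. They became 516 (156 higher, 360 lower) under normexp and 1855 (1043 lower) with both arrays above background. Without the blocks of either array they became 1749 (946 lower), and with no filter 4909 (2207 higher, 2702 lower). Of the 15 probes, 0 passed 1.5-fold under normexp. The count is also 0 without the blocks, by construction, since the 1 probe past 1.5-fold lies in them. The count by repeated spots and the shares among probes of like signal were added after seeing the data.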
